A study of Mus musculus with 20 samples.

Results

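Transcripts of 6 collagen genes were followed in 3 cell populations of mouse leg muscle: Col12a1, Col14a1, Col16a1 and Col22a1, which are fibril-associated collagens with interrupted triple helices (FACITs), and Col15a1 and Col18a1, the multiplexins. They were taken by gene symbol, 6 of the 24393 genes in the deposited count table, and all 6 passed the filter on low counts. The study set out to find which cells make matrix when leg muscle becomes fibrotic, as its title tells, and its RNA came from 3 muscles, the gastrocnemius, the quadriceps and the tibialis anterior. The groups were FAP DKO (4 libraries), FAP WT (4), Misc DKO (4), Misc WT (4), SMP DKO (2) and SMP WT (2). DKO and WT are conditions in the labels, which name neither the genes removed in DKO nor the strain, age or sex of the mice. The sources used here do not say how the cells were separated or what Misc stands for. FAP is a common short form of fibro/adipogenic progenitor, a mesenchymal cell of the space around muscle fibres, and SMP of skeletal muscle progenitor. The series design text calls the replicates biological and names no animals, so p-values measure the spread between these libraries.

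As background, FACITs do not build collagen fibrils themselves but lie along the fibril surface, with part of the molecule reaching out towards other matrix proteins and cells. Collagen XII is abundant in tendon, fascia and the connective tissue sheaths of muscle, collagen XIV often accompanies or replaces it on the same fibrils, collagen XVI is a minor component of several matrices, and collagen XXII is known for its place at tissue junctions, above all the junction between muscle fibre and tendon. Multiplexins are collagens of the zone where a basement membrane meets the surrounding matrix. Collagen XV carries chondroitin sulfate chains and mice that lack it develop a mild muscle disease, while collagen XVIII carries heparan sulfate chains and its C-terminal end can be cut off as endostatin, a fragment that limits vessel growth.

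Library totals ran between 5826000 and 17730111 counts, and the SMP DKO libraries were the shallowest. The muscle genes Des (desmin) and Syne1 (nesprin 1) were read as a check of the condition: Des was lower in DKO in each population and Syne1 in Misc and SMP, by edgeR's quasi-likelihood test, while Syne1 in FAP did not pass (adjusted p = 0.12). Levels below are CPM, counts scaled to a common library size. Genes of muscle progenitors (7 markers, Pax7 and Myod1 among them) summed to between 1292 and 1617 CPM in SMP libraries and to at most 38.1 CPM in any FAP or Misc library. Genes of tendon cells (8 markers) summed to between 51610 and 73650 CPM for Misc DKO, against 53270 to 56830 CPM for Misc WT, and the members went opposite ways: the DKO range lay above the WT range for Thbs4 (28350 to 39090 CPM, against 15040 to 17280), below it for Mkx, Kera, Fmod and Chad, and overlapped it for 3. Over all genes, 21.2% did not overlap between DKO and WT in Misc. The FAP DKO libraries had 3158 to 5052 CPM of the tendon genes, against 715 to 969 CPM for FAP WT. Of this, Thbs4 made up 2564 to 4178 CPM, against 272 to 368 CPM. The library SMP DKO replicate 2 stood apart: its FAP genes (7 markers) summed to 3229 CPM, against 773 in SMP DKO replicate 1 and 1436 and 1640 in SMP WT. Dcn made up 2579 CPM of that sum. The 7 genes summed to 15210 to 21840 CPM in Misc and 19370 to 23590 CPM in FAP, so the sum does not mark FAP alone. Ly6a, at most 7.96 CPM in Misc and at least 431 in FAP, was at 78.8 CPM in SMP DKO replicate 2, against 3.42 in replicate 1 and 8.10 and 6.92 in SMP WT. The endothelial genes (8 markers) of SMP DKO replicate 2 summed to 592 CPM, against 113 in replicate 1 and 300 and 219 in SMP WT. Its immune genes (7 markers) summed to 317 CPM, against 27.8 in replicate 1 and 24.5 and 18.3 in SMP WT, with Cd3e at 0 throughout. Genes of muscle fibres (7 markers) summed to 504 CPM there and 162 CPM in replicate 1, against 32.2 and 44.2 CPM in SMP WT.

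The multiplexin genes moved in opposite directions in Misc, as described below, so the DNA before their RefSeq starts is shown. Promoter sequences were found for 3 of the 6 members. The following give the 250 bases before a start of Col15a1 (chr4:47207762-47208011, plus strand) and before the upstream and downstream starts of Col18a1 (chr10:77166531-77166780 and chr10:77113706-77113955, both minus strand), in RefSeq's GRCm38.p6. The Col15a1 stretch lies inside the gene's annotated span, which begins at 47207655, so it does not precede the first base of that span. Capitals mark GGGCGG, the core of a GC box, read on either strand.
Col15a1 start: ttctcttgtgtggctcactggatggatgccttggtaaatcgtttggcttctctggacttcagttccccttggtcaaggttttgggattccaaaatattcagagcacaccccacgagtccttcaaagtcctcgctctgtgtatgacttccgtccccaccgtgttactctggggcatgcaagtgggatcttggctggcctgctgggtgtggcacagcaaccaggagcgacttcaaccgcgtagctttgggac
Col18a1 upstream start: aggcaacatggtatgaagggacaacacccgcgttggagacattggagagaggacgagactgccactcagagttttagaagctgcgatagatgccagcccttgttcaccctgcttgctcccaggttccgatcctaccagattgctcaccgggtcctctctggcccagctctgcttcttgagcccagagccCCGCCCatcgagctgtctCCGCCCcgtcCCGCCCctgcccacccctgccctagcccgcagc
Col18a1 downstream start: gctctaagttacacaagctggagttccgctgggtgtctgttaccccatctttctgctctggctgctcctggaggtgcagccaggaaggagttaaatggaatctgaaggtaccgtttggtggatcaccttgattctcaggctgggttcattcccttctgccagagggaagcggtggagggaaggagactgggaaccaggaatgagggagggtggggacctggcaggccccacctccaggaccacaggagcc
The upstream start of Col18a1 held 3 GC boxes in these bases, and the downstream start and this inner start of Col15a1 held 0. Of 32851 RefSeq promoters cut to the same length, 32.7% held at least 1 match and 8.47% held 3 or more. TATAAA was found in 0 of the 3 sequences, read on both strands, and in 12.4% of all promoters. The deposited counts are per gene and do not separate the starts of Col18a1.

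In WT muscle, Col15a1 had the highest level of the 6 in every population, and the next in order differed. Levels can be compared between genes only per length, so CPM was divided by the kilobases of annotated exon of each gene. On that scale Col15a1 and Col14a1 led in FAP WT, at 312 ± 42.6 and 199.5 ± 9.64 CPM per kb (SD, n = 4 libraries). Misc WT was led by Col15a1, Col12a1 and Col16a1, at 298 (266 to 322), 208 (198 to 232) and 126 (113 to 142) CPM per kb, as mean and range. SMP WT was led by Col15a1 and Col22a1, at 78.7 ± 5.18 and 49.1 ± 3.87 CPM per kb (SD, n = 2), and Col14a1 was at 0.977 ± 0.269 CPM per kb there. Summed over the 6 genes, the level was 566 ± 18.9 CPM per kb in FAP DKO and 597 ± 59.2 in FAP WT. It was 652 ± 62.7 in Misc DKO and 738 ± 36.6 in Misc WT, and 142 and 204 in the SMP DKO libraries and 195 and 205 in the SMP WT libraries. Every SMP library thus lay below every FAP and Misc library, and the DKO and WT ranges overlapped in each population.

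**Figure D1:**
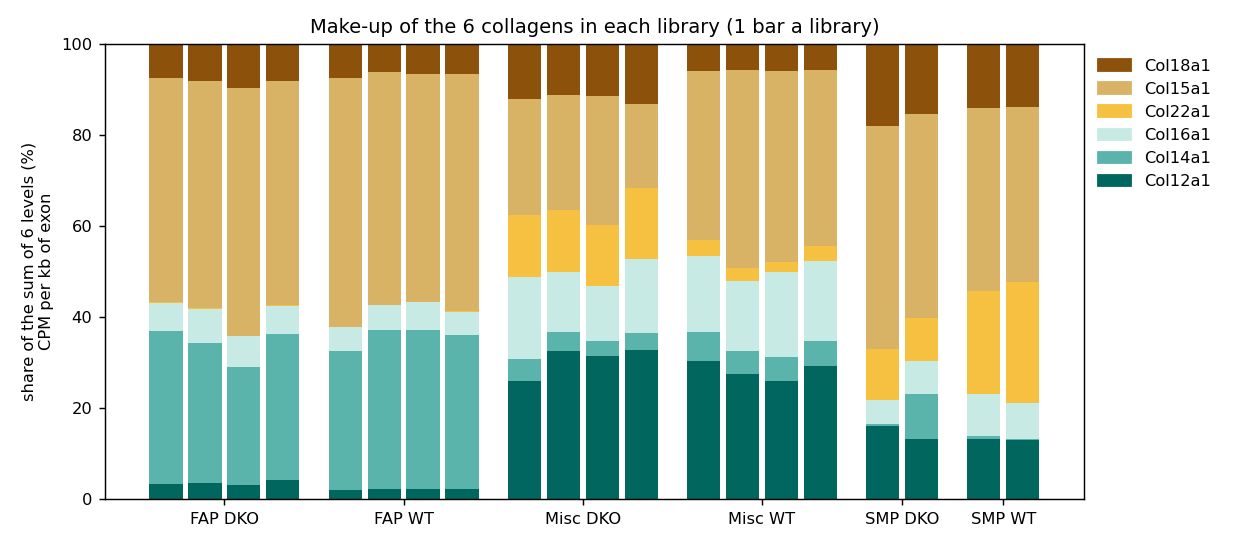
Share of each collagen, in percent, in the sum of the 6 levels (CPM per kb of exon), with 1 bar for each library and the groups side by side. The Col22a1 share was 13.5 to 15.4% for Misc DKO libraries and 2.40 to 3.36% for Misc WT, and the Col15a1 share 18.5 to 28.3% for Misc DKO libraries and 37.2 to 43.7% for Misc WT.

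Shares of that sum set the populations apart. Col14a1 held a median of 31.4% for FAP DKO and 34.4% for FAP WT, but 3.99% for Misc DKO and 5.46% for Misc WT. Col12a1 held a median of 3.36% for FAP DKO and 2.15% for FAP WT, but 31.9% for Misc DKO and 28.3% for Misc WT. Col15a1 was the largest share in every group except Misc DKO, where Col12a1 was. In SMP, Col22a1 held 9.44 and 11.3% in DKO and 22.6 and 26.5% in WT.

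Between populations, edgeR called all 6 members in FAP against Misc in DKO, where 29.7% of 14179 genes were called, and 4 in WT, where 36.9% were. In FAP against SMP it called 6 in DKO (58.8% of genes) and 6 in WT (62.3%). In Misc against SMP it called 5 in DKO (59.5%) and 6 in WT (60.6%). Without SMP DKO replicate 2 the DKO counts against SMP were 5 for FAP and 6 for Misc.

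DKO against WT changed 2 of 6 members in FAP, where 10.7% of genes were called, 3 of 6 in Misc (18.7%) and 2 of 6 in SMP (23%). By direction, 2 were higher in FAP (5.59% of genes) and 0 lower (5.14%), 2 were higher in Misc (9.15%) and 1 lower (9.55%), and 1 was higher in SMP (11.8%) and 1 lower (11.2%). The libraries of DKO and WT did not overlap for 1 member in FAP (19.2% of genes), 4 in Misc (21.2%) and 2 in SMP (55.7%). The SMP count holds Col14a1, whose call is described below, and it was 1 in a fit of the SMP libraries alone and 1 without SMP DKO replicate 1, SMP WT replicate 1 or SMP WT replicate 2. The median log2 change of the 6 members was 0.21 in FAP, −0.22 in Misc and −0.03 in SMP, against −0.01, 0.01 and 0.01 over all genes tested. Tests of whether the DKO effect differed between populations called 3 members for FAP against Misc (2.77% of genes), 3 for FAP against SMP (10.3%) and 4 for Misc against SMP (8.95%). The FAP against SMP count was 1 without SMP WT replicate 1, and the Misc against SMP count was 2 without SMP DKO replicate 2, SMP WT replicate 1 or SMP WT replicate 2.

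Collagen XII and collagen XIV, the paired FACITs of tendon and skin, divided between Misc and FAP. Col12a1 (Entrez 12816, chromosome 9, 79598987 to 79721141 in mm10, 15.23 kb of exon) was at 289, 295, 259.5 and 366 CPM in FAP DKO and 2897, 2942, 2910 and 3351 CPM in Misc DKO. In WT it was at 201, 196, 177 and 193 CPM in FAP and 3530, 3073, 3021 and 3053 CPM in Misc. No FAP library came near a Misc library. The log2 fold change of FAP over Misc was −3.32 ± 0.12 (SE) in DKO (adjusted p = 1.6e-16) and −4.05 ± 0.12 in WT (adjusted p = 3.3e-18, edgeR). Col14a1 (Entrez 12818, chromosome 15, 55307644 to 55520803, 7.01 kb of exon) ran the other way, at 1403, 1189, 1008 and 1271 CPM in FAP DKO and 245, 174, 148.5 and 179.5 CPM in Misc DKO. In WT it was at 1439, 1444, 1300 and 1415 CPM in FAP and 337, 256, 292 and 265 CPM in Misc. FAP exceeded Misc by 2.70 ± 0.58 in DKO (adjusted p = 0.002) and 2.28 ± 0.57 in WT (adjusted p = 0.0048). All groups share 1 estimate of a gene's spread, and for Col14a1 that estimate holds the SMP DKO libraries at 3.42 and 143 CPM. Against SMP, Col14a1 in FAP was higher by 4.06 ± 0.83 in DKO (adjusted p = 7e-04, but 0.079 with only the compared groups) and by 7.67 ± 1.03 in WT (adjusted p = 1.1e-05). The DKO value was 8.49 without SMP DKO replicate 2 and 3.11 without SMP DKO replicate 1. Misc against SMP did not pass for Col14a1 in DKO (1.36 ± 0.72, adjusted p = 0.12) and did without SMP DKO replicate 2 (5.78, adjusted p = 1.4e-12). Col12a1 in Misc exceeded SMP by 3.01 ± 0.15 in DKO and 2.99 ± 0.15 in WT. FAP lay below SMP in Col12a1 by −1.05 ± 0.13 in WT (adjusted p = 1.7e-07). In DKO that difference was −0.32 ± 0.13 (adjusted p = 0.042), and it missed with only the compared groups (0.12), with a block by column letters (0.071), without the filter (0.16) and in 4 of 6 fits that left out a library: without FAP DKO replicate 1 (0.08), 2 (0.071) or 3 (0.12), and without SMP DKO replicate 2 (0.35, at −0.18).

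Col12a1 rose with DKO in FAP. There the DKO libraries lay at 259.5 to 366 CPM and the WT libraries at 177 to 201, without overlap. The log2 change was 0.66 ± 0.11 (edgeR, adjusted p = 0.00027, n = 4 libraries a group). It did not pass in Misc (−0.07 ± 0.11, adjusted p = 0.71, 95% interval −0.29 to 0.16) or in SMP (−0.08 ± 0.15, adjusted p = 0.74, interval −0.40 to 0.23). SMP libraries held 347 and 406 CPM in DKO and 414 and 382.5 CPM in WT. The difference of the DKO effect itself passed between FAP and Misc (0.72 ± 0.15, adjusted p = 0.008) and between FAP and SMP (0.74 ± 0.19, adjusted p = 0.014). The FAP against SMP value missed without SMP WT replicate 1 (adjusted p = 0.07). Of the 8 tendon genes, all with counts in both FAP groups, the DKO range lay above the WT range for 3 (Thbs4, Comp at 156 to 181 CPM, against 73.3 to 111, and Scx at 1.77 to 4.70 CPM, against 0.571 to 0.834) and overlapped it for 5 (Mkx, Tnmd, Kera, Fmod and Chad). Over all genes, 19.2% did not overlap between DKO and WT in FAP. The part of the tendon genes in the Col12a1 difference was not tested. In bulk libraries, fewer or more cells of a type and less or more RNA per cell cannot be told apart.

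Col14a1 did not pass in FAP, at −0.20 ± 0.54 (edgeR, adjusted p = 0.86). In Misc the DKO libraries lay at 148.5 to 245 CPM and the WT libraries at 256 to 337, without overlap, but the difference did not pass in the fit of all groups (−0.62 ± 0.55, adjusted p = 0.48). With only the Misc libraries in the fit it did pass (−0.62, adjusted p = 0.0045), while its p in the other alternatives that keep all groups was 0.41 to 0.62. SMP had the lowest levels, at 3.42 and 143 CPM in DKO, from 26 and 965 counts, against 8.18 and 5.52 CPM in WT. The high library, SMP DKO replicate 2, is the one with the highest sum of FAP genes, with the FAP marker Pdgfra at 112 CPM, against 10.1 in SMP DKO replicate 1 and 9.32 and 10.4 in SMP WT. The fitted change in SMP, 3.40 ± 0.91 (edgeR, adjusted p = 0.017), rests on it: without it the value was −1.01 (adjusted p = 0.071). It also missed in a fit of the SMP libraries alone (adjusted p = 0.48), without SMP WT replicate 1 (0.076) and without SMP WT replicate 2 (0.1). Since the 2 DKO libraries enclose both WT libraries, no direction is drawn for Col14a1 in SMP. The difference of the DKO effect was −3.60 ± 1.05 for FAP against SMP (adjusted p = 0.042) and −4.03 ± 1.06 for Misc against SMP (adjusted p = 0.029). With a replicate block by number these missed (adjusted p = 0.089 and 0.068), and without SMP DKO replicate 2 they turned to 0.81 and 0.39.

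**Figure D2:**
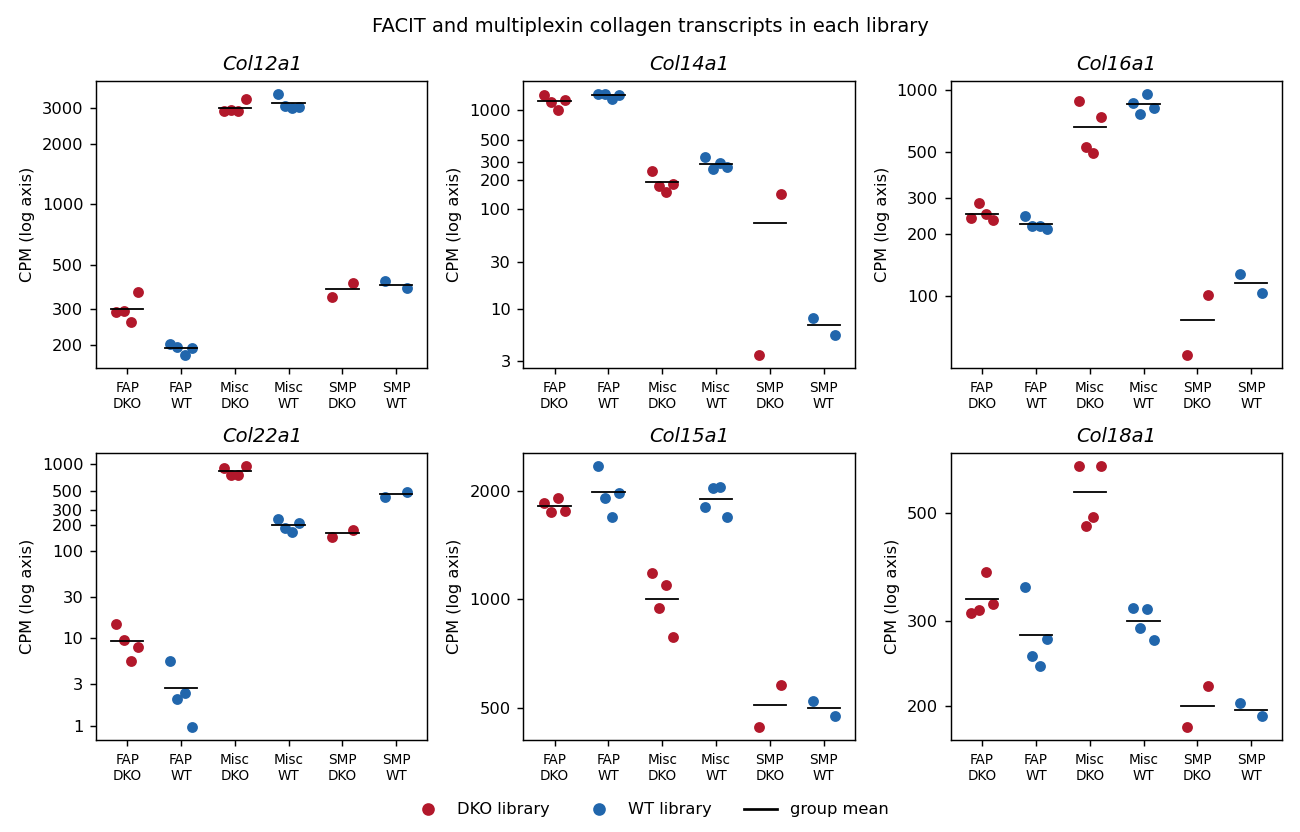
CPM of each collagen on a log axis in each library (points) with the group mean (line), DKO and WT of FAP, Misc and SMP side by side. Col12a1 lay at 2897 to 3530 CPM in Misc and at 177 to 366 in FAP, and the 2 SMP DKO libraries of Col14a1 lay at 3.42 and 143 CPM.

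Collagen XXII was changed by DKO in all 3 populations, upwards in FAP and Misc and downwards in SMP. Col22a1 (Entrez 69700, chromosome 15, 71795795 to 72150979, 9.20 kb of exon) was at 916, 747, 759.5 and 955 CPM in Misc DKO, against 236, 186, 169 and 209.7 CPM in Misc WT. The groups were far apart, and the log2 change was 2.08 ± 0.27 (edgeR, adjusted p = 4.5e-05, n = 4 a group). FAP held little of it, at 14.6, 9.71, 5.51 and 8.03 CPM in DKO, from 57 to 157 counts a library, against 5.57, 2.02, 2.34 and 0.952 CPM in WT, from 10 to 71 counts. The FAP change was 1.75 ± 0.37 (adjusted p = 0.0055), with WT replicate 1 just above DKO replicate 3. Both replicate 1 libraries were the highest of their FAP groups, and without FAP WT replicate 1 the change was 2.40. The SMP libraries had 148 and 177 CPM of Col22a1 in DKO, against 426 and 477 CPM in WT, a change of −1.48 ± 0.38 (edgeR, adjusted p = 0.011, n = 2 a group). The SMP value missed without SMP DKO replicate 1 (adjusted p = 0.058) and kept its sign in every alternative listed. In the same libraries the 7 progenitor genes summed to 1470 and 1292 CPM in SMP DKO and to 1568 and 1617 CPM in SMP WT. The DKO range lay below the WT range for 3 of them (Pax7, Chrdl2 and Calcr), above it for 2 (Myod1 and Itga7) and overlapped it for 2 (Myf5 and Cdh15). All 7 muscle fibre genes lay above it, with sums of 162 and 504 CPM in SMP DKO and 32.2 and 44.2 CPM in SMP WT. Of the 8 tendon genes in SMP, the DKO range lay below the WT range for 4 (Scx, Mkx, Tnmd and Kera), above it for 0 and overlapped it for 4. They summed to 2654 and 5391 CPM in SMP DKO and to 4623 and 4151 CPM in SMP WT. With 2 libraries a group, 55.7% of all genes tested did not overlap between DKO and WT in SMP, so such counts say little. In Misc the muscle fibre genes summed to 39.9 to 72.9 CPM for DKO, against 26.2 to 33.0 CPM for WT, with 3 of the 7 above the WT range and 4 overlapping it. Over all genes, 21.2% did not overlap in Misc. The part of these marker genes in the Col22a1 differences was not tested.

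The DKO effect on Col22a1 differed between populations by its own test: Misc against SMP by 3.55 ± 0.47 (edgeR, adjusted p = 0.00016) and FAP against SMP by 3.23 ± 0.53 (adjusted p = 0.0011). FAP against Misc did not pass (−0.32 ± 0.46, adjusted p = 0.86, interval −1.31 to 0.66). The order of Misc and SMP was not the same in DKO and WT. In DKO, Misc lay above SMP by 2.38 ± 0.36 (adjusted p = 2.8e-05), and in WT below it (−1.17 ± 0.31, adjusted p = 0.0034). FAP lay below Misc by −6.47 ± 0.34 in DKO and −6.15 ± 0.36 in WT.

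Collagen XVI did not pass the test of DKO against WT in any population. Col16a1 (Entrez 107581, chromosome 4, 130047817 to 130099277, 6.75 kb of exon) was at 240, 283, 251 and 233 CPM in FAP DKO and 245, 218, 218 and 211 CPM in FAP WT. The change there was 0.17 ± 0.18 (edgeR, adjusted p = 0.59). Misc libraries held 887, 530, 494 and 741 CPM in DKO, against 865.5, 765, 958 and 824 CPM in WT (−0.36 ± 0.18, adjusted p = 0.16). Misc DKO replicate 1 lay among the WT libraries, and without it the change was −0.56 (adjusted p = 0.028). SMP had 51.5 and 101 CPM in DKO and 128 and 103 CPM in WT (−0.60 ± 0.25, adjusted p = 0.092). Without SMP DKO replicate 2, which leaves 1 DKO library, the change was −1.18. It ran between −1.18 and −0.21 over the 4 fits that left out 1 SMP library. The DKO effect in FAP against SMP was 0.78 ± 0.31 (adjusted p = 0.11), and 1.35 without SMP DKO replicate 2. It ran between 0.38 and 1.35 over the 12 fits that left out 1 library of these groups. By population, FAP was below Misc, by −1.40 ± 0.18 in DKO (adjusted p = 2.1e-06) and −1.94 ± 0.18 in WT (adjusted p = 1.6e-08). FAP was above SMP by 1.73 ± 0.24 in DKO and 0.95 ± 0.23 in WT.

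The multiplexins parted in Misc. Col15a1 (Entrez 12819, chromosome 4, 47207655 to 47313167, 6.35 kb of exon) fell there to 1180, 948, 1095 and 789 CPM in DKO, against 1801, 2037, 2045 and 1687 CPM in WT. Col18a1 (Entrez 12822, chromosome 10, 77052178 to 77166530, 7.02 kb of exon) rose there to 626, 471, 491 and 626 CPM in DKO, against 318, 290, 316.5 and 273 CPM in WT. Neither gene's groups overlapped. The log2 changes were −0.92 ± 0.13 for Col15a1 (edgeR, adjusted p = 1.5e-05) and 0.89 ± 0.12 for Col18a1 (adjusted p = 1.3e-05, n = 4 a group). Both held without any 1 of the 8 libraries, at −1.02 to −0.84 and 0.80 to 0.96. Beside this, 8 endothelial genes summed to 47.5 to 80.0 CPM for Misc DKO, against 87.6 to 121.5 CPM for Misc WT, with Tek lower (19.2 to 27.6 CPM, against 55.9 to 75.5) and the ranges of the other 7 overlapping. The 8 pericyte and smooth muscle genes summed to 98.2 to 162 CPM, against 176 to 226 CPM, with Cspg4 (33.3 to 45.3 CPM, against 76.1 to 99.7) and Rgs5 lower and the other 6 overlapping. The 7 FAP genes summed to 15210 to 16930 CPM for Misc DKO, against 20990 to 21840 CPM for Misc WT. Of them, Pdgfra, Dpp4, Cd55 and Dcn lay below the WT range and 2 overlapped it. Pi16 lay above it (248 to 368 CPM, against 28.9 to 61.4). Over all genes, 21.2% did not overlap in Misc. Each of these marker genes had counts in both groups, and their part in the changes of Col15a1 and Col18a1 was not tested.

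In FAP, Col15a1 was at 1855, 1748, 1908 and 1763 CPM in DKO and 2340, 1913, 1688 and 1977 CPM in WT, and the groups overlapped (−0.12 ± 0.13, adjusted p = 0.6). Col18a1 was at 311, 315.5, 379 and 325 CPM in FAP DKO and 352, 253, 242 and 275 CPM in FAP WT (0.25 ± 0.12, adjusted p = 0.21). SMP did not pass for Col15a1 (442 and 580 CPM in DKO, 523 and 477 in WT, 0.03 ± 0.18, interval −0.34 to 0.40). Nor did it for Col18a1 (180 and 219.7 CPM in DKO, 202 and 190 in WT, 0.03 ± 0.17, interval −0.33 to 0.38). The DKO effect on Col15a1 differed between FAP and Misc (0.79 ± 0.18, adjusted p = 0.013) and between Misc and SMP (−0.95 ± 0.22, adjusted p = 0.0078, but 0.052 without SMP DKO replicate 2 and 0.055 without SMP WT replicate 2). For Col18a1 it differed between Misc and SMP (0.86 ± 0.21, adjusted p = 0.012, but 0.054 without SMP WT replicate 1). Between FAP and Misc the Col18a1 value was −0.64 ± 0.17 (adjusted p = 0.043), which missed in 11 of the 16 fits that left out 1 library, at −0.71 to −0.51 over all 16. With a replicate block by number it missed as well (adjusted p = 0.059), and with a block by column letters it passed (adjusted p = 0.01). Between FAP and Misc, Col15a1 did not pass in WT (0.06 ± 0.13, adjusted p = 0.73, interval −0.20 to 0.33) and was higher in FAP in DKO (0.86 ± 0.13, adjusted p = 8.6e-06). Col18a1 did not pass in WT either (−0.09 ± 0.12, adjusted p = 0.59, interval −0.35 to 0.16) and was lower in FAP in DKO (−0.73 ± 0.12, adjusted p = 3.8e-05). Against SMP, Col15a1 was higher in FAP by 1.83 ± 0.17 in DKO and 1.98 ± 0.17 in WT, and in Misc by 0.97 ± 0.16 in DKO and 1.92 ± 0.17 in WT. Col18a1 was higher in FAP than in SMP by 0.73 ± 0.15 in DKO and 0.51 ± 0.15 in WT (adjusted p = 0.0052), the WT value missing with plain library totals (0.14) and without SMP WT replicate 2 (0.055).

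**Figure D3:**
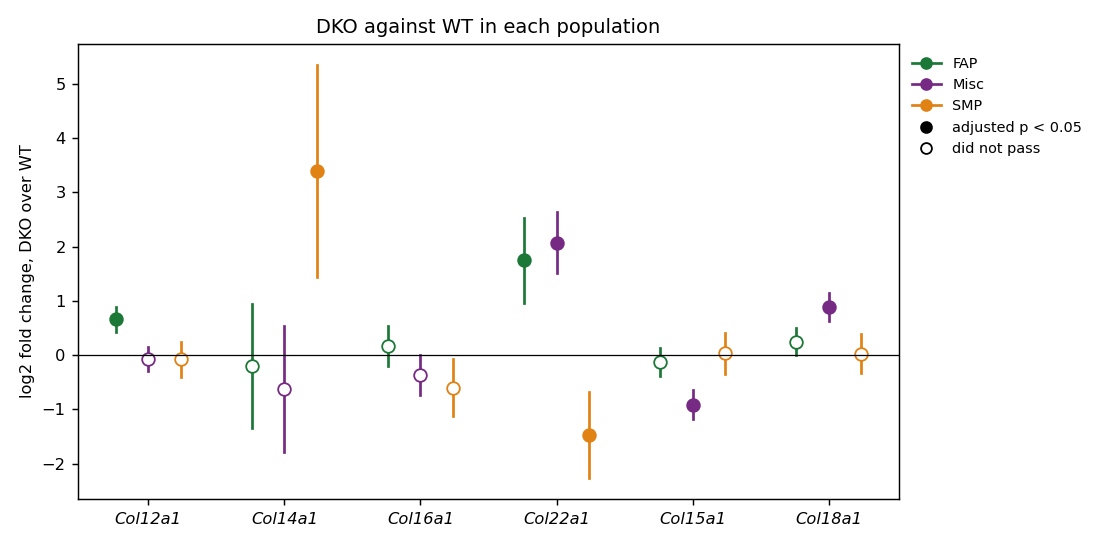
Log2 fold change of DKO over WT for each collagen in FAP, Misc and SMP, with the 95% interval as a line and filled points where adjusted p was below 0.05. Col22a1 lay at 1.75 in FAP, 2.08 in Misc and −1.48 in SMP, and in Misc Col15a1 and Col18a1 lay at −0.92 and 0.89.

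A ratio of 2 genes within a library does not depend on how libraries are scaled, so the related members were also set against each other as log2 ratios of raw counts. The Col15a1/Col18a1 ratio was 0.91, 1.01, 1.16 and 0.33 in Misc DKO and 2.50, 2.81, 2.69 and 2.63 in Misc WT. The groups did not overlap, and the means differed by −1.80, that is, the ratio in DKO was 0.286 times that in WT (exact two-sided permutation test, p = 0.0286, adjusted p = 0.0381 over 4 tests). The Misc ratio had to separate, since Col15a1 lay wholly lower and Col18a1 wholly higher in DKO, and its p adds nothing to those calls. In FAP it was 2.58, 2.47, 2.33 and 2.44 in DKO and 2.73, 2.92, 2.80 and 2.85 in WT, a smaller difference of −0.37 with the same exact p = 0.0286 and adjusted p = 0.0381, the smallest p that 4 against 4 libraries allow being 0.0286. In SMP it was 1.29 and 1.40 in DKO and 1.37 and 1.32 in WT, where 2 against 2 libraries cannot go below 0.333 and no test was made. The ratio was thus lower with DKO in FAP as well, where neither gene passed alone.

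The Col12a1/Col14a1 log2 ratio was −2.28, −2.01, −1.96 and −1.80 in FAP DKO and −2.84, −2.88, −2.88 and −2.87 in FAP WT. The difference was 0.86 (exact permutation p = 0.0286, adjusted p = 0.0381), so the ratio in DKO was 1.81 times that in WT. In Misc it was 3.56, 4.08, 4.29 and 4.22 in DKO and 3.39, 3.59, 3.37 and 3.53 in WT, overlapping in 1 library, and the difference of 0.57 did not pass (exact permutation p = 0.0571, adjusted p = 0.0571). In SMP DKO it was 6.64 and 1.51, the second value from the library with the highest sum of FAP genes, and in SMP WT 5.65 and 6.10.

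**Figure D4:**
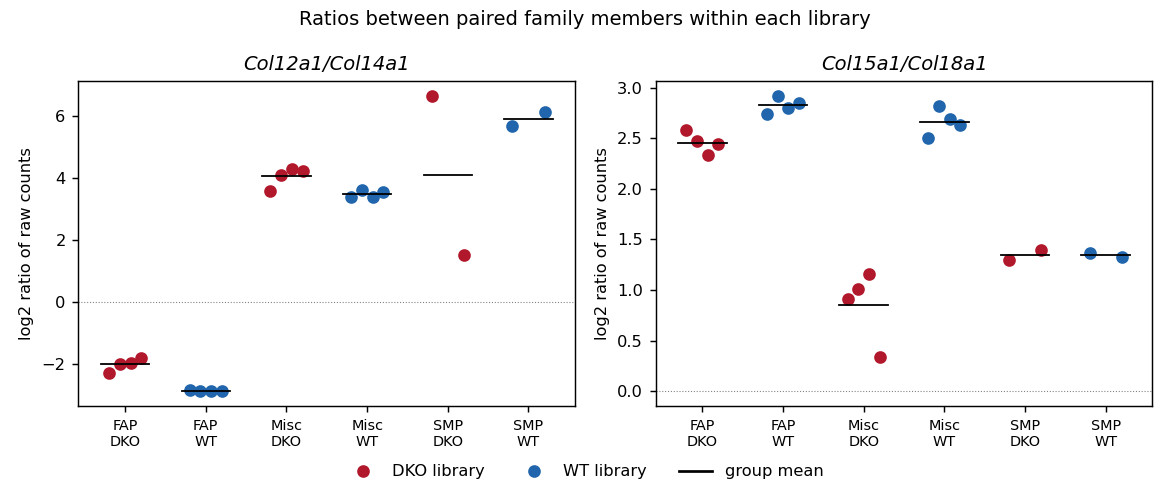
Log2 ratios of raw counts within each library (points) with group means (lines) for Col12a1/Col14a1 and Col15a1/Col18a1, DKO beside WT in FAP, Misc and SMP. The Col15a1/Col18a1 values lay at 0.33 to 1.16 for Misc DKO libraries and 2.50 to 2.81 for Misc WT.

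Within Misc DKO the 4 libraries varied together for some members. Replicates 1 and 4 were the higher pair for Col16a1 (887 and 741 CPM against 530 and 494), Col18a1 (626 and 626 against 471 and 491) and Col22a1 (916 and 955 against 747 and 759.5). The same pair was the higher for Col14a1 (245 and 179.5 CPM against 174 and 148.5), with replicate 4 close to replicate 2. Col15a1 and Col12a1 did not share this. For Col15a1 replicate 1 was the highest library (1180 CPM) and replicate 4 the lowest (789 CPM). For Col12a1 replicate 1 was the lowest (2897 CPM) and replicate 4 the highest (3351 CPM). Genes of tendon cells summed to 56070 and 73650 CPM in replicates 1 and 4 and to 51610 and 51650 CPM in replicates 2 and 3.

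Each member had its own closest companions over the 20 libraries, named by Pearson's r of log2 CPM as a description, since the libraries fall into 3 populations and are not independent points. Col12a1 was most like Fmod (0.992), the collagen-binding proteoglycan fibromodulin, then Cilp2 (0.988) and Tns3 (0.987). Col14a1 was most like C3, a complement component (0.995), Clec3b (0.987) and the chemokine Cxcl12 (0.986). Col16a1 was most like Col1a1, the main fibrillar collagen chain (0.985), H2afy2 and Lox, which cross-links collagen (both 0.981). Col22a1 was most like Chodl (0.992), Rgs16 (0.982) and Rgs2 (0.98), regulators of G-protein signalling. Col15a1 was most like Col4a5, a basement membrane collagen chain (0.97), Mme (0.967) and Flt3l (0.966). Col18a1 had looser companions, with Gab2 (0.924), Cacnb3 (0.92) and the lysosomal protease Ctsd (0.912). Among the members themselves, Col14a1 and Col15a1 were the most alike pair (0.888) and Col14a1 and Col22a1 the least (−0.673).

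The other FACIT-type collagens tested had group means of at most 22.1 CPM in FAP and Misc. In SMP, Col19a1 reached a mean of 69.2 CPM (WT) and Col20a1 25.8 CPM (DKO). Of 6 listed genes 5 were in the table and 4 passed the filter, with 0 higher and 1 lower in DKO in each population. Over all genes 5.14% were lower in FAP, 9.55% in Misc and 11.2% in SMP. The lower gene was Col9a2, a chain of the cartilage FACIT collagen IX, at 7.98 ± 2.37 CPM in Misc DKO and 22.1 ± 5.44 in Misc WT (−1.47 ± 0.22, edgeR adjusted p = 3e-05). Its changes in FAP (−1.63 ± 0.34) and SMP (−1.64 ± 0.41) had the same sign, at means of at most 5.48 CPM. Col19a1, a FACIT first described in a muscle tumour line, was at 46.8 ± 19.7 CPM in SMP DKO and 69.2 ± 0.135 in SMP WT, and did not pass (−0.56 ± 0.40, adjusted p = 0.34).

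The partners of these collagens went both ways. For the counts below, the shares over all genes were 5.59% higher and 5.14% lower in FAP, 9.15 and 9.55% in Misc, and 11.8 and 11.2% in SMP. Of 11 fibrillar collagens, on whose fibrils FACITs sit, 1 was higher and 1 lower in FAP, 3 higher and 4 lower in Misc, and 4 higher and 2 lower in SMP. Of 14 fibril surface proteins, 4 were higher and 2 lower in FAP, 4 and 4 in Misc, and 2 and 2 in SMP. The 2 higher in SMP were Lum (181.9 ± 198.5 CPM in DKO, 47.7 ± 5.74 in WT) and Bgn (934.7 ± 424.2 CPM in DKO, 624.8 ± 26.7 in WT). Their DKO libraries lay far apart and overlapped WT. The 2 lower, Kera and Ogn, did not overlap, which held for 55.7% of all genes in SMP. The DKO libraries of Kera also lay far apart, at 33.45 and 117.9 CPM, against 273.6 and 281.1 CPM in WT. The largest changes were Thbs4 in FAP (3.26 ± 0.18) and Postn (3.40 ± 0.24) and Aspn (2.86 ± 0.22) in Misc. Fmod, closest to Col12a1 over all libraries, had a log2 change of 0.73 in FAP (adjusted p = 0.09) and −0.53 in Misc (adjusted p = 0.18), neither past the test. Of 18 basement membrane genes, neighbours of collagens XV and XVIII, 0 were higher and 6 lower in FAP, 1 and 8 in Misc, and 2 and 1 in SMP. The perlecan gene Hspg2 was among those higher in SMP (0.65 ± 0.18, adjusted p = 0.012). In FAP and Misc the largest changes were falls of Col4a4 (−1.90 and −2.44), Col4a3 (−1.38 and −1.97) and Col4a6 (−1.29 and −1.85). Of 13 tested genes for enzymes and receptors of the endostatin end, 1 was higher and 1 lower in FAP, 3 and 2 in Misc, and 5 and 2 in SMP. Glypican 1 (Gpc1), a heparan sulfate proteoglycan that binds endostatin, rose in SMP to 185 ± 11.4 CPM in DKO, against 74.0 ± 14.4 in WT (1.32 ± 0.18, adjusted p = 1.8e-05). Gpc4, its relative, fell in Misc to 32.2 ± 2.20 CPM in DKO, against 67.1 ± 5.53 in WT (−1.06 ± 0.09, adjusted p = 1.1e-08). Of 5 genes of collagen-binding integrins, 1 was higher in FAP (Itga1, 0.72 ± 0.14), while Misc had Itga10 higher (1.15 ± 0.10) and Itga2 lower (−1.08 ± 0.23). SMP had Itga10 lower (−0.89 ± 0.15) and Itga11 called higher (1.48 ± 0.38, at 30.7 ± 27.2 CPM in DKO and 10.9 ± 0.110 CPM in WT). That SD in DKO is close to the mean, so the 2 DKO libraries of Itga11 lay far apart and its call leans on the higher library. Of 11 genes of collagen folding and processing, 2 were higher and 1 lower in FAP, 3 and 3 in Misc, and 4 and 0 in SMP. The median log2 change of the basement membrane genes was −0.24 in FAP, −0.40 in Misc and 0.27 in SMP, against −0.01, 0.01 and 0.01 over all genes. In the same order of populations it was −0.19, 0.06 and −0.40 for the fibrillar collagens and 0.56, −0.37 and 0.04 for the fibril surface proteins. It was 0.18, 0.16 and 0.54 for the endostatin genes, 0.09, 0.03 and 0.17 for the integrins, and 0.11, 0.09 and 0.23 for folding and processing. For the other FACIT-type collagens it was −0.15, 0.57 and −0.61, over 4 genes.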

How the data were processed

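The authors deposited raw counts per gene, exon counts by the table's name, with no word on the counting tool or on strand in the sources used here. The series design text names OSA as the aligner, mm10 as the genome and RefSeq as the annotation, and the submitters' processing notes list DESeq2 with no version. Members and gene lists were chosen with earlier results of these data known.

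Of 24393 genes, 14179 passed edgeR's filterByExpr by group (minimum count 10, minimum total 15). After TMM scaling, which CPM also uses, 1 quasi-likelihood model of all 6 groups was fitted, with no block, in edgeR 4.0.16 (R 4.3.3). P-values were adjusted by Benjamini-Hochberg over all genes of a comparison and called below 0.05. Standard errors were taken as |log2 change| over the root of the F statistic. In the text, plus or minus after a log2 change is that error, and after a CPM value the SD. Library totals were 5826000 to 17730111 counts, and a member had as few as 10 counts in a FAP library (Col22a1) and 26 in an SMP library (Col14a1). Exon lengths came from GENCODE M21, which uses the same assembly as mm10. Col22a1 and Col15a1 share 16 and 14 exon bases with antisense genes on the other strand, where unstranded counts cannot be told apart, and the other 4 members share 0 with another gene. The steps were tested on simulated data. Named genes were all members, up to 3 called genes with the largest change per list and population (not all printed), the 3 most alike genes per member, Des and Syne1; Col19a1 and the single marker genes were added after their values were seen.

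Deviations from group means of FAP and Misc libraries with the same replicate number had correlations between 0.156 and 0.315 for DKO and between 0.156 and 0.216 for WT, 4 pairs each, against at most 0.053 for other numbers. No label states a pairing. The reported fit has no block, and the blocked value is given beside a result where it changes the call. Alternatives were DESeq2 size factors, library totals, the DESeq2 1.42.0 Wald test, no filter, only the compared groups, blocks by replicate number and by column letters, and each library left out.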

Additional observations from a re-analysis of the deposited data

Results flagged for a closer look

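Chance alone sets a library apart in about 1 in 20 groups of 4, and 32 such groups were examined. Col12a1 in Misc had 1 library apart from the other 3 in each genotype: replicate 4 at 3351 CPM in DKO and replicate 1 at 3530 CPM in WT.

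By edgeR's test, the effect of DKO differed for 3 members in FAP against Misc (2.77% of genes), 3 in FAP against SMP (10.3%) and 4 in Misc against SMP (8.95%). Each value is a difference of log2 changes. For Col12a1 the difference was 0.72 for FAP against Misc and 0.74 for FAP against SMP. For Col22a1 it was 3.23 for FAP against SMP and 3.55 for Misc against SMP. For Col15a1 it was 0.79 for FAP against Misc and −0.95 for Misc against SMP. For Col18a1 it was −0.64 and 0.86 for the same pairs, and the −0.64 missed in 11 of the 16 fits that left out 1 library. For Col14a1 it was −3.60 for FAP against SMP and −4.03 for Misc against SMP. Both Col14a1 values turned to 0.81 and 0.39 without SMP DKO replicate 2, which had the highest sums of FAP, endothelial and immune genes in SMP, and missed with only the compared groups in the fit (adjusted p = 0.14 each).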

How the results depend on the processing

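Over the 72 log2 changes of members, 71 kept their sign and side of the threshold with DESeq2 size factors and 71 with the DESeq2 Wald test, 70 with library totals, 69 without the filter and 66 with only the compared groups. With a replicate block by number 69 of 72 did, and with a replicate block by column letters 51 of 54. Under the blocks the calls lost were the Col14a1 effects against SMP, at −3.49 and −3.92 by number and −3.04 and −3.47 by letters, Col12a1 in FAP against SMP in DKO by letters (−0.23) and Col18a1 as given above, and no other member's call changed. The Col12a1 effect of Misc against SMP, reported value 0.013, turned to −0.011 with DESeq2 size factors and −0.010 with the Wald test. Library totals set the median of all genes at −0.32 to −0.28 in the direct comparisons of FAP or Misc with SMP. The Col18a1 calls against SMP in WT then missed (0.25 and 0.30). The count of members in SMP was 1 with only the SMP groups. Over all genes, DKO against WT in SMP called 3258, but 922 with only the compared groups and 1821 without SMP WT replicate 1, and in FAP 1521, but 996 without FAP WT replicate 1 and 934 without FAP DKO replicate 2. The effect in FAP against Misc called 393, but 738 with the block by letters and 590 with only the compared groups. That in FAP against SMP called 1465, but 776 without SMP WT replicate 1, and that in Misc against SMP 1269, but 801 with only the compared groups and 782 without SMP WT replicate 1. Sign flips within replicate numbers, a block for the ratios, left the differences at 0.86, −0.37 and −1.80 with an adjusted exact p of 0.125, the smallest 4 pairs allow. The cause of these changes was not tested.

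With each library left out, the count of members was 2 in FAP, 3 to 4 in Misc and 1 to 2 in SMP. It was 2 to 3 for the effect in FAP against Misc, 1 to 3 for FAP against SMP and 2 to 4 for Misc against SMP. The ratio differences were 0.79 to 0.95 and −0.41 to −0.33 in FAP and −1.91 to −1.63 in Misc, where 7 libraries cannot give a p below 0.0571. Values that changed sign were the SMP changes of Col12a1 (−0.209 to 0.013), Col14a1 (−1.01 to 4.36), Col15a1 (−0.19 to 0.20) and Col18a1 (−0.13 to 0.15). So did Col15a1 in FAP against Misc in WT (−0.025 to 0.134). So did the effects of FAP against Misc for Col22a1 (−0.64 to 0.33), of FAP against SMP for Col14a1 (−4.56 to 0.81) and Col15a1 (−0.322 to 0.065), and of Misc against SMP for Col12a1 (−0.083 to 0.138), Col14a1 (−4.99 to 0.39) and Col16a1 (−0.16 to 0.81). Leaving out 1 SMP library leaves 1 in its group, which is then assumed to vary like the other groups.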
